A study of Mus musculus with 5 samples.

Results

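The genes described here encode the machinery of protein synthesis and of ribosome production: translation initiation and elongation factors with their modifying enzymes, tRNA synthetases, ribosomal proteins, nucleolar and pre-rRNA processing factors, and subunits of the RNA polymerases. The rule that chose them reads gene symbols and no measured value: symbols that begin with Eif, Eef, Rpl, Rps, Nop, Nol, Utp, Rrp or Polr, or that name a tRNA synthetase, leaving out the Eif2ak kinases. It found 30 genes, read by 39 probe sets, among the 2190 named genes of the deposited table, and where several probe sets read a gene the brightest, by its mean over all arrays, stands for it. The cells were mouse mesenchymal stem cells (MSC) from bone marrow, grown as primary cultures in Mesencult medium and profiled on 5 Affymetrix arrays. On 3 arrays the MSC had been kept alone (MSC alone, replicates 1 to 3). On 2 arrays they had been kept for 48 h in a transwell, across a membrane, with purified T cells stimulated through CD3 and CD28, at 10 T cells to each MSC (co-culture, replicates 1 and 2). The labels call the arrays biological repetitions, give no genotype, strain or age of the mice, and do not say whether cells were pooled.

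In the first stage of translation, initiation factors bring the mRNA cap, the small ribosomal subunit and the initiator tRNA together, and elongation factors then deliver charged tRNAs and move the ribosome along. tRNA synthetases charge each tRNA with its amino acid. Ribosomes themselves are built in the nucleolus, where the small-subunit processome folds and cleaves the precursor of ribosomal RNA, and cells stimulated by cytokines are known to adjust both the output of ribosomes and the activity of initiation factors.

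The deposited table is a selection and holds only probe sets in which the co-culture arrays lay wholly above or wholly below the arrays of MSC alone (3373 of 3373 probe sets). Accordingly 100% of its probe sets passed the threshold of limma, an adjusted p below 0.05, and a pass of any gene below carries no weight of its own. The rule of selection is not known, and the differences of the selected genes may be too large. The smallest gap between the groups was 0.34 on the log2 scale. No other gene was analysed here. Array medians lay between 7.61 and 7.64 in MSC alone and were 7.502 and 7.42 in co-culture, on the log2 scale. Of 12 markers of MSC, 6 were in the table (Col1a1, Cxcl12, Pdgfrb and Cd44 lower in co-culture, Pdgfra and Vcam1 higher), so the labelled cell type was checked only in part. Of 15 T cell markers 0 were in the table, and of 18 macrophage and monocyte markers 2 were, Mpeg1 and Ctss, whose mean log2 level was between 3.74 and 4.24 in MSC alone and was 8.025 and 7.35 in co-culture replicates 1 and 2. The part of other cells in the differences below was not tested. In bulk RNA of this kind, fewer cells of a type and less RNA per cell cannot be told apart.

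Of the 30 translation genes 23 were higher and 7 lower in co-cultured MSC, all past the threshold in limma, where 48.7% of all probe sets were called higher and 51.3% lower. The median log2 difference, co-culture minus MSC alone, was 0.69 over the 30 genes and -0.61 over all 2190 named genes. The selection leaves no small differences, so the sign of a median follows the direction of the majority. Of all named genes 48.3% were higher, so the -0.61 is not a typical change of the table. The differences were of modest size: the median absolute log2 difference was 0.86 for these genes, against 1.14 for the 2160 other named genes. At least 2-fold changes were found for 9 of the 30 (30.0%), where 62.7% of all probe sets passed that size. Of these 9, Utp18, Rps27, Eif4e3, Qars and Nol8 were higher and Eif1ax, Eif4g2, Polr3k and Eef1akmt1 lower, beside 27.5% and 35.3% of all probe sets. These small counts moved with the processing. After centring every array on its median, 11 genes were at least 2-fold higher and 1 lower, against 34.6% and 28.5% of all probe sets. These medians come from the selected table alone, so the centring follows its make-up and does not renormalise the whole arrays. The count of genes at least 2-fold lower was 2 without MSC replicate 3 and 1 without co-culture replicate 2. No direction was reversed under the 13 alternatives. Where the same probe set was read, groups that do not overlap fix this in advance, and it says nothing about stability. Only Eif1ax, Eif4e3, Eif2b2, Eif3a, Eef2k, Nol8 and Tars2 had other probe sets in the table. The direction of those was not fixed in this way, and it stayed the same. They too had entered the selected table, so probe sets without a difference could not appear.

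**Figure D1:**
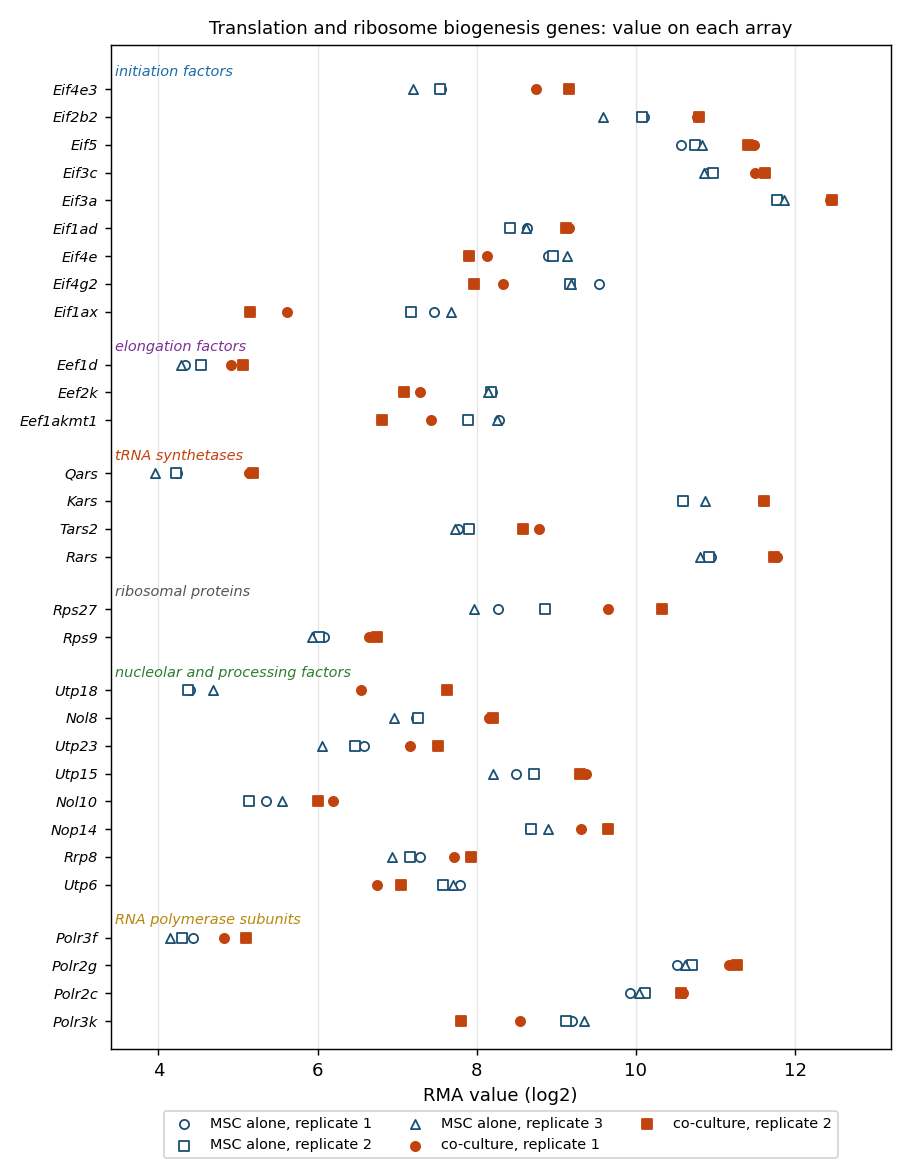
Value of each of the 30 genes on each array, as the RMA log2 value of its brightest probe set (horizontal axis), with genes grouped by class and ordered by their difference. Open blue symbols are the 3 arrays of MSC alone and filled orange symbols the 2 co-culture arrays; in every gene the 2 groups are apart, as the selection of the table requires, and the narrowest gap is 0.38.

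**Figure D2:**
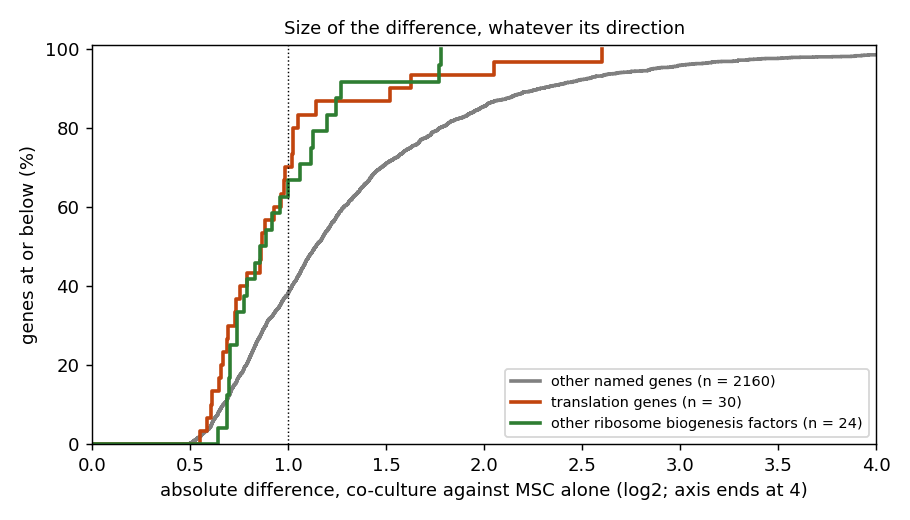
Cumulative share of genes (vertical axis, percent) by the absolute log2 difference between co-culture and MSC alone (horizontal axis, drawn up to 4), for the 30 translation genes, the 24 other ribosome biogenesis factors of a separate list and the 2160 named genes outside the 30. The dotted line marks 2-fold, which 30.0% of the translation genes and 61.8% of the other named genes reached.

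Among the initiation factors 6 of 9 were higher and 3 lower in co-culture. The higher genes were Eif4e3, Eif2b2, Eif5, Eif3c, Eif3a and Eif1ad, and the lower ones Eif1ax, Eif4g2 and Eif4e. The median log2 difference of the class was 0.65, while its mean log2 value was 9.45 in MSC alone and 9.54 in co-culture.

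Eif1ax encodes eIF1A, which helps the small subunit scan to the start codon. In MSC alone its log2 values were 7.46, 7.175 and 7.68, and in co-culture they were 5.62 and 5.16, in the order of the replicate numbers, as for all genes below. The gap between the groups was 1.56, where the selection of the table requires some gap in every gene. The log2 value of Eif1ax fell by 2.05 ± 0.24 (SE), a 4.15-fold change (adjusted p 0.00209 in limma), and its other probe set fell by 1.86. Among all 2190 genes of the table its fall ranked 146.

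The cap-binding factors went in opposite directions. Eif4e, which encodes the main protein that binds the mRNA cap, had log2 values of 8.89, 8.96 and 9.14 in MSC alone and 8.13 and 7.90 in co-culture, and fell by 0.98 ± 0.18 (SE; adjusted p 0.00544 in limma). Eif4e3, a cap-binding relative of eIF4E, stood at 7.55, 7.545 and 7.199 in MSC alone and at 8.74 and 9.16 in co-culture. It rose by 1.52 ± 0.22 (SE), or 2.87-fold (adjusted p 0.00336 in limma), and its other, dimmer probe set rose by 2.01. These are 2 separate genes, each compared only with itself, and their levels were not set against each other. Eif4g2, which encodes an eIF4G-like scaffold that lacks the site for eIF4E, was at 9.53, 9.17 and 9.18 in MSC alone and at 8.33 and 7.97 in co-culture, a fall by 1.14 ± 0.22 (SE; adjusted p 0.00548 in limma).

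The table held genes for 2 subunits of eIF3, the large complex that holds the initiation apparatus on the small subunit. Both were higher in co-culture, and subunits outside the table were not analysed here. Eif3a had log2 values of 11.78, 11.78 and 11.86 in MSC alone and 12.44 and 12.47 in co-culture, a rise of 0.65 ± 0.16 (SE; adjusted p 0.00907 in limma). Its other probe sets rose by 0.65 and 1.05. Eif3c was at 10.90, 10.97 and 10.85 in MSC alone and at 11.50 and 11.63 in co-culture, and rose by 0.66 ± 0.17 (SE; adjusted p 0.00925 in limma). Within a group the values of either gene differed by at most 0.124, and the gaps between the groups were 0.58 and 0.53.

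Eif2b2 and Eif5, the initiation factor genes of the table that act on eIF2, the carrier of the initiator tRNA, were also higher. Others outside the table were not analysed here. Eif2b2, which encodes the beta subunit of the exchange factor that recharges eIF2 with GTP, was at 10.11, 10.08 and 9.58 in MSC alone and at 10.77 and 10.79 in co-culture. It rose by 0.86 ± 0.22 (SE; adjusted p 0.00976 in limma) in a probe set that can bind related transcripts, and by 0.70 in its other one. Eif5, which encodes the protein that triggers GTP hydrolysis by eIF2, was at 10.57, 10.75 and 10.83 in MSC alone and at 11.48 and 11.41 in co-culture, a rise of 0.73 ± 0.18 (SE; adjusted p 0.0083 in limma). Eif1ad, which encodes a protein with an eIF1A-like domain, rose by 0.58 ± 0.17 (SE). Its adjusted p of 0.015 in limma became 0.0615 without MSC replicate 2, within a range of 0.00728 to 0.0615 over the alternatives.

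Promoter sequence is shown for Eif3a and Eif3c because they encode subunits of 1 complex and rose by similar amounts. The 250 bases before the annotated start were taken from RefSeq (GRCm38.p6), which held an entry for 22 of the 30 genes; where a gene had several starts, the outermost was used. Both strands were searched for 4 motifs: the gamma-activated site GAS (TTCNNNGAA), a core of the interferon-stimulated response element (GAAA, any 2 bases, GAAA), the E-box bound by Myc and related factors (CACGTG) and a site for ATF4 (TGATGNAA). Capitals mark a match, which is the interferon response core in the window of Eif3a, chr19:60790694-60790943 (minus strand), and a GAS in that of Eif3c, chr7:126566367-126566616 (minus strand).
Eif3a: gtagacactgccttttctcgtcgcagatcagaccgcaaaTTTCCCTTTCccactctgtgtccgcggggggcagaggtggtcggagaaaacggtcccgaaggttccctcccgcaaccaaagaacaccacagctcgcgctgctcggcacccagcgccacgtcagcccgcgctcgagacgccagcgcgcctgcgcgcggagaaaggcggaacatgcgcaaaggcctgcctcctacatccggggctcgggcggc
Eif3c: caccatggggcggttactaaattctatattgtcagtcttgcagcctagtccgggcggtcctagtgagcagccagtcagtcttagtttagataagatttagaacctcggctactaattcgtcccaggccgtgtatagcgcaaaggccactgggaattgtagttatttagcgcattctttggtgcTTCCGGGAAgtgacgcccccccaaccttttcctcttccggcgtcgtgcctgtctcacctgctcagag
Of the 22 promoters 4 held a GAS (Eif3c, Kars, Nol8 and Utp15), beside 7.14% of 27025 promoters of the same length. The interferon response core was in 3 (Eif3a, Nol10 and Qars), beside 3.05%, the E-box in 2 (Eef2k and Utp18), beside 6.04%, and the ATF4 site in 0, beside 3.53%. Each promoter printed here held 1 match, so none overlapped. A match describes the letters of a window and is not evidence that a factor binds there.

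The elongation class held 3 genes, 2 of which encode enzymes that modify elongation factors, and these 2 were lower in co-culture. Eef2k encodes the kinase that phosphorylates and so restrains eEF2, the factor that moves the ribosome by 1 codon. Its log2 values were 8.19, 8.18 and 8.14 in MSC alone and 7.29 and 7.08 in co-culture. Eef2k fell by 0.98 ± 0.17 (SE; adjusted p 0.00477 in limma) in a probe set that can bind related transcripts, and its other probe set fell by 0.53. Eef1akmt1, which encodes a methyltransferase that acts on a lysine of eEF1A, was at 8.28, 7.885 and 8.26 in MSC alone and at 7.43 and 6.81 in co-culture, and fell by 1.02 ± 0.26 (SE; adjusted p 0.00891 in limma). The co-culture arrays of this gene were 0.62 apart, a spread wider than the gap of 0.46 between the groups.

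Eef1d, which encodes a subunit of the exchange factor for eEF1A, was the member of this class that was higher in co-culture. It was read by 1 probe set of the table, which was low on all arrays, at 4.33, 4.535 and 4.28 in MSC alone. In co-culture this probe set was at 4.92 and 5.065. Probe sets outside the table were not analysed here, so the low level is not shown to be that of the gene. The rise of 0.61 ± 0.18 (SE; adjusted p 0.0149 in limma) rests on 1 probe set that can bind related transcripts, and the table gives no detection calls. The adjusted p was 0.0563 without MSC replicate 1 and 0.0577 without co-culture replicate 2, in a range of 0.00763 to 0.0577.

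All 4 tRNA synthetase genes that had entered the selected table were higher in co-culture, where 48.7% of all its probe sets were higher. They rose by closely similar amounts, between 0.87 and 1.03 on the log2 scale (median 0.905). The selection kept only separated groups, so these 4 do not stand for the whole synthetase family. Kars, Qars and Rars encode the lysyl, glutaminyl and arginyl enzymes, which sit together in the cytosolic multi-synthetase complex, and Tars2 encodes the mitochondrial threonyl enzyme. Kars was at 10.59, 10.59 and 10.87 in MSC alone and at 11.60 and 11.62 in co-culture, a rise of 0.93 ± 0.18 (SE; adjusted p 0.00571 in limma). Rars was at 10.94, 10.91 and 10.81 in MSC alone and at 11.77 and 11.73 in co-culture, a rise of 0.87 ± 0.165 (SE; adjusted p 0.00558 in limma). The co-culture arrays differed by only 0.01 in Kars and 0.04 in Rars.

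Qars was read by 1 probe set of the table, which was low on all arrays. It was at 4.23, 4.22 and 3.96 in MSC alone and 5.14 and 5.19 in co-culture. Its rise of 1.03 ± 0.18 (SE; adjusted p 0.00487 in limma) was the largest of the class, but a difference at this level is the least certain without detection calls. Tars2 was at 7.765, 7.90 and 7.72 in MSC alone and at 8.78 and 8.58 in co-culture, and rose by 0.88 ± 0.18 (SE; adjusted p 0.00592 in limma). Its other probe set rose by 0.92.

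Promoters are shown for Kars and Qars, whose enzymes share the complex; Rars had no entry. Capitals mark a GAS in the window of Kars, chr8:112011355-112011604 (minus strand), which ends at the base before the annotated start, and the interferon response core in that of Qars, chr9:108507755-108508004 (plus strand).
Kars: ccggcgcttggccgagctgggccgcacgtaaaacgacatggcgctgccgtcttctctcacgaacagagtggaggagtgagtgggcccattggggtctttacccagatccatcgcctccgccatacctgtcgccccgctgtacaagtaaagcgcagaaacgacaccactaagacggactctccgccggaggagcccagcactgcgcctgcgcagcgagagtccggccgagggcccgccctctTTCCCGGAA
Qars: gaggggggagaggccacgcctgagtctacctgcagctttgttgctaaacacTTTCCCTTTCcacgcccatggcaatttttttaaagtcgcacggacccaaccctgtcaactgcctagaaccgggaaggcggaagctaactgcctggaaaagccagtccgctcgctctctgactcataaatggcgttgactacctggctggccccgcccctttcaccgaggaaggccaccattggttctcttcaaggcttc

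Cytosolic ribosomal proteins were represented by 2 genes, Rps27 and Rps9, both of the small subunit and both higher in co-culture. Rps27 was at 8.27, 8.86 and 7.97 in MSC alone and at 9.65 and 10.33 in co-culture. The arrays of either group were spread widely, by 0.88 and 0.68, beside a gap of 0.80 between the groups. Rps27 rose by 1.62 ± 0.335 (SE), or 3.08-fold (adjusted p 0.00616 in limma). Rps9 was at 6.08, 6.02 and 5.93 in MSC alone and at 6.65 and 6.75 in co-culture, a rise of 0.69 ± 0.17 (SE; adjusted p 0.00846 in limma). Another 2 probe sets are annotated to Rpl30 together with 4 other loci and so name no single gene; they rose by 0.90 and 0.95. Ribosomal protein genes have many near-identical copies in the genome, so all these values are uncertain as measures of 1 gene.

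**Figure D3:**
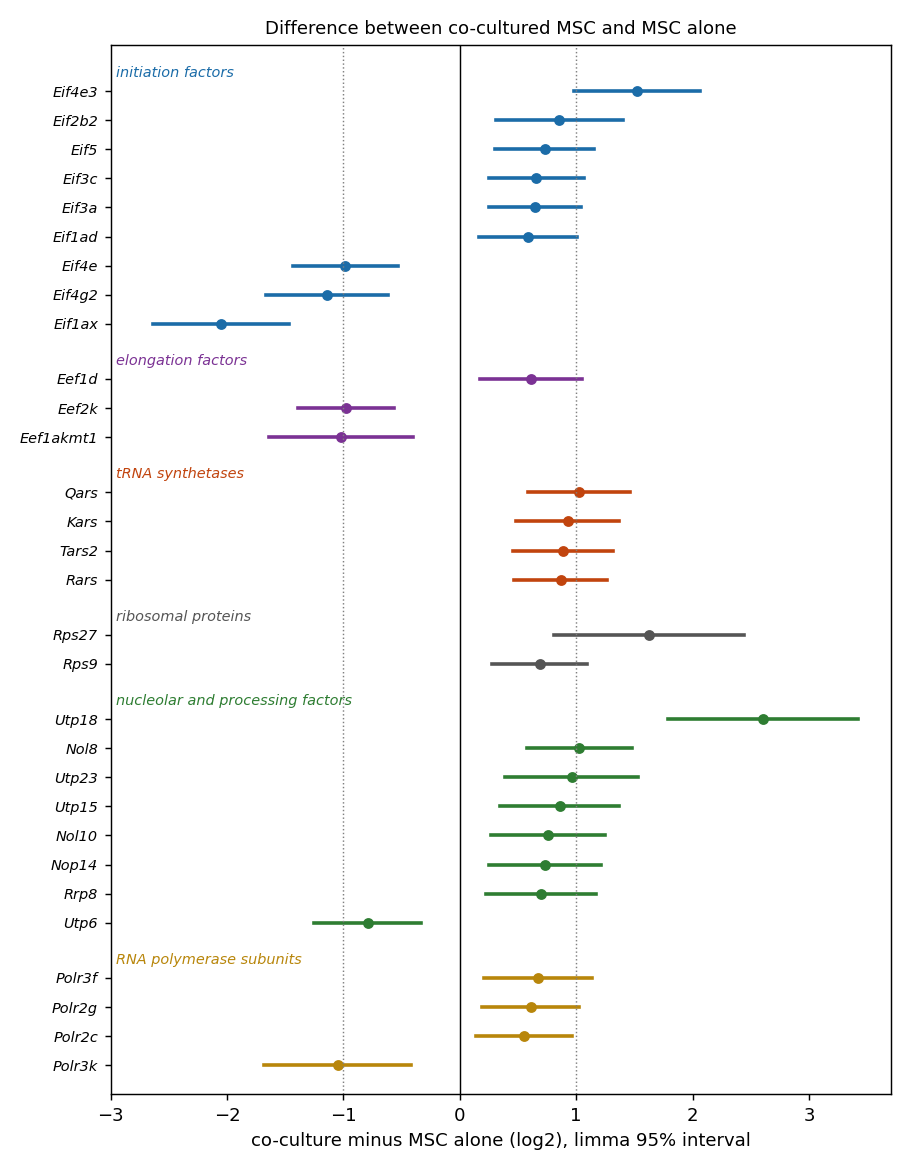
Difference of each gene between co-culture and MSC alone on the log2 scale (points), with limma's 95% interval (lines) and classes by colour. Solid and dotted vertical lines mark no difference and 2-fold; the 4 tRNA synthetases sit close together between 0.87 and 1.03, while the initiation factors run from -2.05 to 1.52.

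Of 8 nucleolar and pre-rRNA processing genes 7 were higher and 1 lower in co-culture, with a median log2 difference of 0.81. The class mean on the log2 scale stood at 6.98, 6.925 and 6.875 on the arrays of MSC alone and at 7.65 and 7.91 on those of co-culture. Most of the class belong to the small-subunit processome or act beside it.

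Utp18, which encodes a processome protein, showed the largest difference of all 30 genes. It was at 4.401, 4.37 and 4.69 in MSC alone and at 6.55 and 7.63 in co-culture. The rise was 2.60 ± 0.34 (SE), or 6.08-fold (adjusted p 0.00268 in limma), and ranked 82 among the rises of the table. The co-culture arrays differed by 1.08, more than in any other of the 30 genes, and the low level in MSC alone, read by a single probe set, makes the fold uncertain. Its promoter, chr11:93885767-93886016 (minus strand), is shown for the gene of the largest rise; capitals mark an E-box, which lies from 20 to 15 bases before the start.
Utp18: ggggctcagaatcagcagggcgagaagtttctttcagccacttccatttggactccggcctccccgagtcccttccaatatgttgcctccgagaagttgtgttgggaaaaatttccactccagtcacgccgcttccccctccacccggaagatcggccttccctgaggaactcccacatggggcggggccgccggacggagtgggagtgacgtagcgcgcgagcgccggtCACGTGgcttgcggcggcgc

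Nol8, which encodes a nucleolar protein, was at 7.23, 7.265 and 6.955 in MSC alone and at 8.15 and 8.20 in co-culture, and rose by 1.03 ± 0.18 (SE; adjusted p 0.00501 in limma). Its other 2 probe sets rose by 1.30 and 1.15, so all 3 pointed the same way. Utp15, another processome protein, was at 8.49, 8.72 and 8.21 in MSC alone and at 9.37 and 9.30 in co-culture, a rise of 0.86 ± 0.21 (SE; adjusted p 0.0085 in limma). Utp23, a small-subunit processing factor, was at 6.58, 6.48 and 6.06 in MSC alone and at 7.16 and 7.51 in co-culture, a rise of 0.96 ± 0.235 (SE; adjusted p 0.00847 in limma). MSC replicate 3 was the lowest array in each of these 3 genes.

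Utp6, also of the processome, was the exception of the class. It was at 7.795, 7.58 and 7.70 in MSC alone and at 6.74 and 7.055 in co-culture, and fell by 0.79 ± 0.19 (SE; adjusted p 0.00815 in limma). Nol10, a nucleolar protein, rose by 0.75 ± 0.20 (SE), from 5.35, 5.13 and 5.55 in MSC alone to 6.20 and 6.001 in co-culture (adjusted p 0.0105 in limma). The remaining rises were 0.73 for Nop14, a processome protein, and 0.69 for Rrp8, which methylates ribosomal RNA. Both lost their call without co-culture replicate 2 (adjusted p 0.0509 and 0.0541 in limma, each the highest of ranges that began at 0.00731 and 0.007).

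RNA polymerase subunits moved both ways. Polr3k, which encodes a small subunit of polymerase III, the enzyme that makes tRNA and 5S rRNA, was at 9.19, 9.125 and 9.34 in MSC alone and at 8.54 and 7.80 in co-culture. It fell by 1.05 ± 0.26 (SE; adjusted p 0.00859 in limma) in a probe set that can bind related transcripts. The co-culture arrays of Polr3k were 0.74 apart, more than the 0.58 between the groups. Polr3f, another subunit of polymerase III, was at 4.43, 4.30 and 4.15 in MSC alone and at 4.83 and 5.10 in co-culture. This was a low level throughout in its 1 probe set of the table, and the rise was 0.67 ± 0.19 (SE; adjusted p 0.0132 in limma).

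The polymerase II subunit genes Polr2g and Polr2c rose by 0.61 ± 0.17 and 0.55 ± 0.17 (SE; adjusted p 0.0123 and 0.0172 in limma). Polr2g was at 10.52, 10.70 and 10.62 in MSC alone and at 11.17 and 11.275 in co-culture. Polr2c was at 9.92, 10.12 and 10.04 in MSC alone and at 10.595 and 10.57 in co-culture, the smallest difference of the 30 genes. Of these 4 genes Polr2g, Polr2c and Polr3f each lost the call when 1 array was left out. The adjusted p was 0.0519 for Polr2g and 0.0688 for Polr2c without MSC replicate 1, and 0.06 for Polr3f without co-culture replicate 2, in each case the highest of ranges that began at 0.00687, 0.00776 and 0.0075. No gene with a Polr1 symbol, for subunits of polymerase I, was among the named genes of the table.

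**Figure D4:**
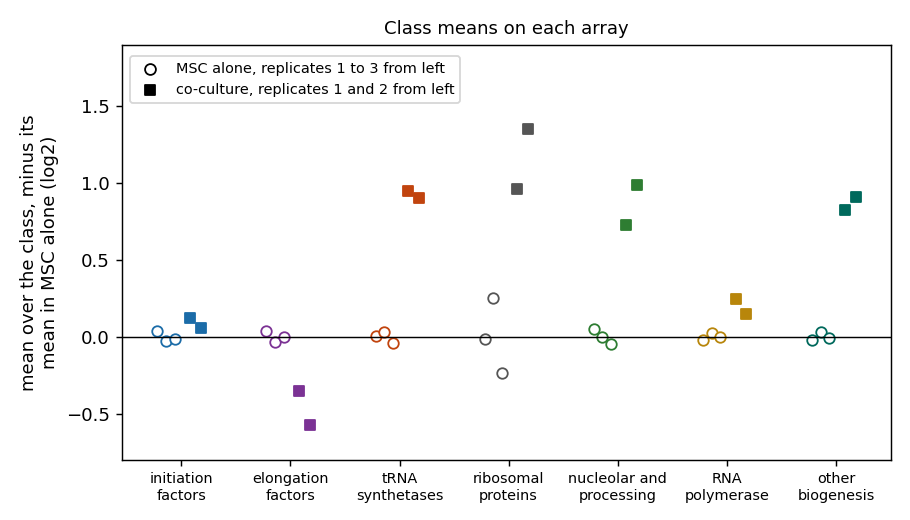
Mean log2 value of each class on each array, less the class's mean in MSC alone (vertical axis), for the 6 classes and for 24 other ribosome biogenesis factors. Open circles are MSC alone and filled squares co-culture; the synthetases, ribosomal proteins, nucleolar factors and other biogenesis factors lie higher in co-culture, the elongation class lower, and the initiation factors near zero because their members went both ways.

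The 2 co-culture arrays did not contribute equally. Co-culture replicate 2 lay farther from the mean of MSC alone than replicate 1 in 22 of the 30 genes. Over the 23 genes that were higher in co-culture, the mean log2 value was 8.03, 8.07 and 7.94 on the arrays of MSC alone, and 8.855 and 9.0 on those of co-culture. MSC replicate 3 was the lowest control in 14 of these 23. The counts of 22 and 14 were not made over all probe sets, so neither is shown to be particular to these genes. Over the 7 lower genes the means were 8.48, 8.30 and 8.49 in MSC alone and 7.44 and 7.11 in co-culture. The split by direction and the selection of the table fix the separation of these means, which describe the arrays only.

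Ribosome biogenesis factors whose symbols fall outside the rule were read from a separate list. Like the lists that follow, it was chosen with earlier results of these data known, so its counts are no independent support. Of 108 listed genes 24 were in the table and 84 were not analysed here. Of the 24, 23 were higher in co-culture and 1 lower, where 48.7% of all probe sets were higher and 51.3% lower. All were called in limma, like 100% of the probe sets of the table. Their median log2 difference was 0.84. Sdad1, whose yeast counterpart acts on the large subunit, was at 8.24, 8.66 and 7.95 in MSC alone and at 10.25 and 9.87 in co-culture, and rose by 1.78 ± 0.26 (SE). Imp3, a processome protein, rose by 1.27 ± 0.19 and Riok3, a kinase of the RIO family, by 1.24 ± 0.235 (SE). Taf1d, a subunit of the selectivity factor of polymerase I, rose by 1.77 ± 0.39 (SE) in a single probe set that can bind related transcripts, or by 2.39 if co-culture replicate 1 is left out and 1.15 if replicate 2 is. The 1 lower gene, named after its values were seen, was Nvl, an ATPase of large-subunit maturation, which fell by 1.20 ± 0.29 (SE).

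Translation factors and partners outside the rule went both ways: of 40 listed genes 9 were in the table, 5 higher and 4 lower. Gspt1, which encodes the termination factor eRF3, was at 8.11, 7.345 and 7.905 in MSC alone and at 6.34 and 5.61 in co-culture. It fell by 1.81 ± 0.32 (SE), and its other probe sets fell by 2.29 and 1.45. The related RNA-binding protein genes Habp4 and Serbp1 fell by 1.596 ± 0.39 and 1.43 ± 0.26 (SE), while their other probe sets fell by 0.61 and 1.73. The log2 difference of Habp4 was -2.27 when co-culture replicate 1 was left out and -0.92 when replicate 2 was. Larp4, which encodes a protein that binds poly(A) RNA, rose by 1.42 ± 0.21 (SE), and by 0.997 in its other probe set. Of these genes only Habp4 lost its call in an alternative, where the spread was not moderated (limma, adjusted p 0.0522).

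The list of stress signalling through eIF2 had 4 of its 27 genes in the table, all higher in co-culture, where 48.7% of all probe sets were higher. Ppp1r15a encodes the stress-inducible subunit that directs a phosphatase to eIF2. It was at 8.37, 8.88 and 9.36 in MSC alone and at 10.15 and 11.11 in co-culture, a rise of 1.76 ± 0.39 (SE; adjusted p 0.00722 in limma). Slc7a11 and Slc3a2, which encode the chains of the cystine-glutamate exchanger, rose by 1.48 ± 0.31 and 1.09 ± 0.27, and Cebpg, a bZIP transcription factor gene, by 1.42 ± 0.27 (SE). The co-culture arrays of Ppp1r15a and Slc7a11 were 0.96 and 0.92 apart, more than the 0.79 and 0.815 between the groups. Slc7a11 was also low in MSC alone, between 5.22 and 5.62.

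Of 32 genes of mTORC1 signalling and Myc partners 8 were in the table, 4 higher and 4 lower. The largest difference among them was that of Pdk1, which fell by 2.47 ± 0.37 (SE), but in the mouse this symbol stands for a kinase of pyruvate dehydrogenase and not for the kinase upstream of mTORC1. Without Pdk1 there were 7 genes, 4 higher and 3 lower. Rhebl1, which encodes a GTPase related to the mTORC1 activator Rheb, rose by 2.35 ± 0.44 (SE), from 7.64, 8.44 and 7.31 in MSC alone to 9.62 and 10.68 in co-culture; its other probe set rose by 2.16. Deptor, which encodes an inhibitor of mTOR, was at 9.11, 9.21 and 7.55 in MSC alone and at 6.63 and 6.35 in co-culture, and fell by 2.14 ± 0.52 (SE). Mxd4, a partner of Max, fell by 2.01 ± 0.47 (SE), and its difference was -1.42 without co-culture replicate 2. Without moderation of the spread, limma gave Deptor, Mxd4 and Rictor, a subunit gene of mTORC2 that was higher in co-culture, adjusted p values of 0.0558, 0.0504 and 0.0503. The other genes of the list also went both ways. Tsc1 rose by 1.10 ± 0.28 and Mxd1 by 1.07 ± 0.20, and Tsc2 fell by 0.79 ± 0.21 (SE). Another probe set of Tsc1 rose by 1.555. Rictor, Tsc1, Mxd1 and Tsc2 are named here after their values were seen.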

How the data were processed

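Gene expression was measured on 5 arrays of biotin-labelled cRNA from total RNA, grouped by the sample titles (3 of MSC alone, 2 of co-culture). The authors deposited log2 values, 1 per probe set, from RMA (per the submitters' processing notes; version not stated), and the sources used here do not give the rule by which the 3373 probe sets of the table were selected. RMA gives no detection call and compresses low values. All sample columns were matched. In the platform's annotation 3013 probe sets have 1 gene symbol, 69 have several and 291 have none. Values were tested as deposited with limma 3.58.1 (R 4.3.3), lmFit and eBayes, all 5 arrays in 1 fit, two-sided, Benjamini-Hochberg over all 3373 probe sets, threshold 0.05; the fit was tested on simulated data. Errors of differences are moderated standard errors; the selection for separated groups may make them too small and the differences too large, and the number of arrays limits the precision. Nothing says that the arrays came from separate animals, so p-values set each difference against the spread between these samples only. Because the table holds only separated groups, the p-values may be too small even for these samples.

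The members, classes, lists and motifs were chosen with earlier results of these data known. Values are given for up to 6 genes of each class with the largest absolute difference, and for up to 4 genes of each list. Eif3a, Eif3c, Nvl, Rictor, Tsc1, Mxd1 and Tsc2 were added after the values were seen. Any gene whose probe sets went in opposite directions was also to be named, and there was none. Related transcripts can bind to probe sets whose names end in _s_at or _x_at (here those of Eif2b2, Eef2k, Eef1d, Nol8 and Polr3k). Alternatives were centring of each array, leaving out each array, a replicate block, a mean-variance trend, no moderation, leaving out the dimmest 25% of probe sets or those ending in _s_at or _x_at, and another probe set per gene.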

Additional observations from a re-analysis of the deposited data

How the results depend on the processing

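In 13 alternatives (383 values) 7 of the 30 genes lost their call in 8 values, each when 1 array was left out. No direction was reversed. For readings of the same probe set the separated groups of the table fix this in advance, and it is no sign of stability. Only readings of other probe sets of a gene, which most of the 30 genes lacked in the table, were not fixed in this way. The counts of genes called were 23 higher and 7 lower; without 1 array they ranged from 19 to 23 and stayed at 7, and those of all probe sets from 1497 to 1641 higher and from 1619 to 1730 lower. With each array centred on its median over the selected table, 11 genes were at least 2-fold higher and 1 lower. The median log2 differences were then 0.855 over all 30 genes, 0.81 for initiation factors and -0.815 for the elongation class. They were 1.07 for synthetases, 0.97 for nucleolar factors and 0.74 for polymerase subunits. Without the dimmest 25%, which removes 5 genes, 3 were at least 2-fold higher. Leaving out 1 array gave 4 to 6 genes at least 2-fold higher, 1 to 6 lower, and medians of 0.62 to 0.73 over all genes, 0.605 to 0.66 for initiation factors, -1.08 to -0.71 for the elongation class, 0.89 to 0.95 for synthetases and 0.53 to 0.625 for polymerase subunits. The median of the elongation class, with 3 genes, was -0.77 without probe sets ending in _s_at or _x_at, -0.75 over all probe sets of a gene and -0.53 with the dimmest. Of the mTORC1 and Myc list, 2 genes were higher without the dimmest 25% and 2 lower without moderation of the spread.

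Replicate numbers 1 and 2 occur in both groups. Deviations of same-numbered arrays from their group means correlated at 0.22 and 0.32 across probe sets, but 2 shared numbers do not show that arrays were paired; with a replicate block the count of genes at least 2-fold lower was 2 and all 30 calls were kept. The smallest values, under 6 on the log2 scale, are limited by the lack of detection calls.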
